A study of Rattus norvegicus with 372 samples.

Results

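The genes described here are 28 genes of the cholesterol synthesis pathway and its sterol-sensing control, most of them targets of the transcription factor SREBP2, measured in primary rat hepatocytes. They were taken by gene symbol from the probe names of the deposited tables. Of the 28 members, 25 had a probe in the whole-transcriptome (WT) assay, each with 1 probe, and Pmvk, Ebp and Sc5d had none. A mean of at least 10 reads per well was required for a test, which 24 members passed among 10191 of 20946 genes, and Tm7sf2 did not pass. The surrogate (ST) assay, which covers fewer genes, had probes for 18 members and was used as a check. TempO-Seq counts the ligation product of a pair of short detector oligos per transcript, so a value is a number of probe reads and not a level per length, and levels are not compared between genes here.

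The hepatocytes came from male Wistar rats and were kept in collagen sandwich in medium with insulin and dexamethasone, which all wells shared. The age of the rats is not given in the sources used here. Exposure lasted 24 h, and each of 14 chemicals was given at a lower and a higher concentration in medium with 0.5% DMSO. Each of the 2 batches used the cells of 1 rat. By the paper, libraries were also made and sequenced separately for each batch. Rat, library preparation and sequencing run therefore cannot be told apart in differences between batches. A batch held 3 wells per treatment, so the wells are technical replicates and p-values compare wells. Vehicle (0.5% DMSO) and medium alone were each given to 3 wells in batch 1, all on plate 4, and to 6 wells in batch 2, split between plates 2 and 3. Simvastatin was on plate 4 in batch 1 and plate 2 in batch 2, and ketoconazole on plate 5 in batch 1 and plate 3 in batch 2. Acetaminophen, chloramphenicol, indomethacin, sulfasalazine and WY14643 shared the plates of ketoconazole. For these 6 chemicals, plate and drug therefore cannot be told apart in batch 1, which also enters their pooled values.

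Cholesterol is built from acetyl-CoA in the mevalonate pathway, which yields isoprenoid diphosphates. Farnesyl diphosphate is joined to squalene, squalene is closed to lanosterol, and lanosterol is trimmed and reduced to cholesterol. When sterols in the endoplasmic reticulum are plentiful, the INSIG proteins hold SCAP and its cargo, the SREBP2 precursor, in place. When sterols run low, SCAP carries SREBP2 to the Golgi, where it is cut into a factor that switches on nearly every enzyme of the pathway. The liver makes much of the body's cholesterol, and the pathway is the target of the statins. Simvastatin is a statin, which blocks mevalonate formation, and ketoconazole is an azole antifungal, a class made to inhibit the fungal form of lanosterol demethylase, the enzyme that Cyp51 encodes in the rat.

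WT libraries held 2289425 to 8975207 reads per well, with medians of 6210462 over the 90 wells of batch 1 and 7220136 over the 96 of batch 2. Across the 10191 genes, a well's log2 CPM correlated with the mean of the other wells of its group and batch with Pearson's r between 0.961 and 0.995, and no 2 wells were identical. The hepatocyte markers Alb, Apoa1, Cps1, Hnf4a, Tf and Ttr summed to a median of 41335 CPM (the usual scaling of reads to the total of the well) in the vehicle wells, against 1.95 CPM for 4 endothelial markers and 29.4 CPM for 5 Kupffer cell and leukocyte markers. With 15 µM ketoconazole that hepatocyte sum was between 19361 and 23100 CPM, below every vehicle well (36464 to 43952), and with 60 µM simvastatin it was between 38315 and 43151 CPM. Tested singly, 3 of the 6 hepatocyte markers were higher and 1 lower with 60 µM simvastatin, against 11.4% and 12.5% of all genes. With 2.4 µM simvastatin 2 were lower, against 1.28%. In lysates, fewer cells of a type and less RNA per cell cannot be told apart. Of the 5 Kupffer cell and leukocyte markers 3 were tested, and Cd163 and Clec4f were lower with 2.4 µM simvastatin (-0.84 ± 0.24 and -0.93 ± 0.25 on the log2 scale) and with 15 µM ketoconazole (-0.95 ± 0.24 and -1.50 ± 0.27), while Cd68 was higher with ketoconazole (1.16 ± 0.21). The summed level of the 5 was between 19.4 and 40.1 CPM in vehicle, between 13.5 and 38.3 CPM with 2.4 µM simvastatin and between 17.4 and 36.3 CPM with 15 µM ketoconazole. The part of these markers in the results for the drugs was not tested.

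Nearly the whole pathway rose with both drugs. Against vehicle, 21 of 24 members tested were higher with 60 µM simvastatin, where 11.4% of all genes were called higher and 12.5% lower. With 15 µM ketoconazole 21 were higher and 1, Insig2, was lower, where 25.0% of all genes were called higher and 26.3% lower. A gene is called where the adjusted p of edgeR's quasi-likelihood test (Benjamini-Hochberg) is below 0.05. With 2.4 µM simvastatin 20 members were higher, against 1.13% of all genes called higher and 1.28% lower. These 20 members made up 17.4% of the 115 genes called higher with 2.4 µM simvastatin and 83.3% of the members tested, and 13 of the 20 genes with the greatest rises were members. With 0.6 µM ketoconazole 11 members were higher, 12.8% of the 86 genes called higher, which were 0.844% of all genes, with 0.775% called lower. No member was called lower with either simvastatin concentration or with 0.6 µM ketoconazole, neither by edgeR, by DESeq2, nor at an unadjusted p below 0.05. The median log2 fold change over the 24 members was 1.74 with 60 µM simvastatin, 2.04 with 15 µM ketoconazole, 1.32 with 2.4 µM simvastatin and 0.56 with 0.6 µM ketoconazole, while the median over all genes tested was between -0.01 and 0.01. Batch 1 alone gave 20, 19, 18 and 2 members higher in that order of treatments, and batch 2 alone 21, 21, 20 and 11. With the wells of each batch added, so that the 2 rats were the replicates, 19, 20, 18 and 0 were higher.

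**Figure D1:**
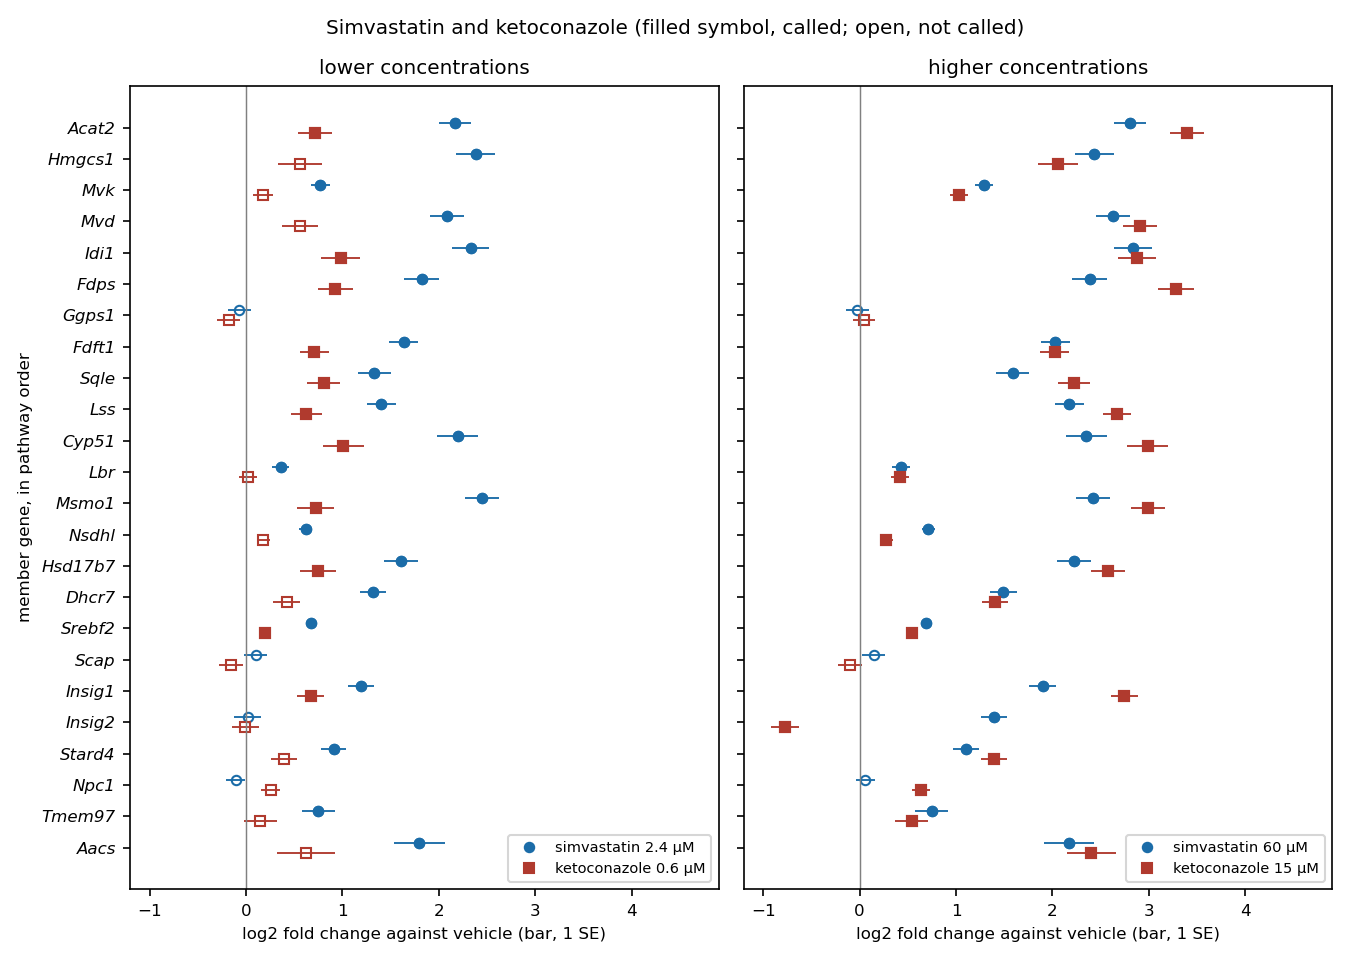
Log2 fold change against vehicle of the 24 members tested, in pathway order, with 1 SE as a bar, for the lower (left) and higher (right) concentrations of simvastatin (circles) and ketoconazole (squares). Filled symbols were called. Most members lie to the right of 0 with both drugs, most simvastatin values lie to the right of the ketoconazole values at the lower concentrations, and Insig2 lies on opposite sides of 0 at the higher ones.

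Promoters are shown because the members moved together. RefSeq's promoter table for the rat assembly GRCr8 held an entry for 24 of the 28 members. In the 250 bases before the start, CCAAT, the box bound by NF-Y, which is known to act beside SREBP, was found on either strand in 18 of these 24 windows, against 34.0% of all 33469 windows. Of the 24 windows 10 held at least 2 CCAAT matches, against 9.42% of all windows. A loose form of the sterol regulatory element, CACNCCAC, was found in 3 of the 24, those of Acat2, Ebp and Insig1, against 4.89% of all windows. The 2 motifs did not overlap in the windows printed. These matches are a description of the letters in these windows and not of bound sites. Windows with CCAAT included that of Ggps1, not called with either drug, and those of Ebp, Sc5d and Tm7sf2, left out of the test. No CCAAT was found for Aacs, Acat2, Cyp51 and Dhcr7, which rose with both drugs, or for Npc1 and Scap. Whether the matches go with the rises was not tested. Hmgcs1 and Idi1 are printed as enzymes that rose strongly with both drugs, and Insig1 and Insig2 as the paired regulators that parted. All 4 are written in the direction of the gene and end at the base before the start. Capitals mark CCAAT and CACNCCAC or their reverse complements.
Hmgcs1, chr2:53382054-53382303 on the plus strand: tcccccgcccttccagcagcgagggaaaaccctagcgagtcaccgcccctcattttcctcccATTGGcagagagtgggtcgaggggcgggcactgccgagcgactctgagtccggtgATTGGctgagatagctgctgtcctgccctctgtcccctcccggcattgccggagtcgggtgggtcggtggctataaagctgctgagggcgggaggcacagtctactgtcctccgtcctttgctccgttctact
Idi1, chr17:66547525-66547774 on the minus strand: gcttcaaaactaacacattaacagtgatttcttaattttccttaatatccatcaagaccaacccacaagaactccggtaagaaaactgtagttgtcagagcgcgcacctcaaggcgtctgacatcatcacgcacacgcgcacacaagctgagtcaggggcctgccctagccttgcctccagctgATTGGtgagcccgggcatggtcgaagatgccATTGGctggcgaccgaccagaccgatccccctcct
Insig1, chr4:8057770-8058019 on the minus strand: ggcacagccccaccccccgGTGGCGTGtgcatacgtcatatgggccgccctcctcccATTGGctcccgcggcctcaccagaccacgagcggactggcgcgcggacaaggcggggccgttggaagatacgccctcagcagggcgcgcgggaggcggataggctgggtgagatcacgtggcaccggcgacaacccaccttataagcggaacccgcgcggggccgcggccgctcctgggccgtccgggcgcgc
Insig2, chr13:35040099-35040348 on the minus strand: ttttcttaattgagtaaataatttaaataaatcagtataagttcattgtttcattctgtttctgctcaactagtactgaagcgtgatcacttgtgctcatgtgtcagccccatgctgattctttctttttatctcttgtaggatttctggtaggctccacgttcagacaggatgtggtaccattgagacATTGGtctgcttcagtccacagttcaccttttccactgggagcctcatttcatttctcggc
The Insig2 window had a GC content of 40.0%, the lowest of the 24, and that of Insig1 72.8%, the highest. The Hmgcs1 and Idi1 windows each hold 2 CCAAT matches.

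In the mevalonate and isoprenoid steps, 6 of 7 members tested rose with both drugs at their higher concentrations and with 2.4 µM simvastatin, and 3 rose with 0.6 µM ketoconazole. Idi1, the isomerase that makes the second of the building blocks of isoprenoids, showed the greatest rise with 60 µM simvastatin. In batch 1 it was at 18.0, 23.8 and 18.8 CPM in the vehicle wells, at 120.3, 99.5 and 106 CPM with 60 µM simvastatin and at 108, 105 and 96.5 CPM with 15 µM ketoconazole. In batch 2 the 6 vehicle wells were between 5.42 and 9.75 CPM (median 7.23), the simvastatin wells at 64.5, 44.7 and 56.5 CPM and the ketoconazole wells at 61.6, 71.8 and 60.6 CPM. In each batch every treated well lay above every vehicle well, and the batch 1 wells lay above those of batch 2 in each of these groups. The log2 fold change (± SE) was 2.84 ± 0.19 with 60 µM simvastatin and 2.88 ± 0.19 with 15 µM ketoconazole, which is 7.14-fold and 7.36-fold, with adjusted p of 1.3e-28 and 8.1e-30. At the lower concentrations it was 2.33 ± 0.19 and 0.98 ± 0.20. The first place of Idi1 with 60 µM simvastatin was narrow. In batch 2 against vehicle of the same plate Acat2 (2.99) was above Idi1 (2.83), and in the ST assay Mvd (2.58) was above Idi1 (2.56).

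Acat2, the thiolase that joins 2 molecules of acetyl-CoA, showed the greatest rise with 15 µM ketoconazole. In batch 1 its vehicle wells were at 28.6, 42.6 and 32.3 CPM, with 233, 242 and 212 CPM in the ketoconazole wells and 183, 150.2 and 174 CPM in the simvastatin wells. In batch 2 vehicle wells were between 12.2 and 18.2 CPM (median 14.1), with 219, 184 and 207 CPM for ketoconazole and 136, 93.1 and 124 CPM for simvastatin. No treated well overlapped a vehicle well of its batch. The log2 fold change was 3.40 ± 0.17 with 15 µM ketoconazole (adjusted p = 5.5e-42) and 2.81 ± 0.17 with 60 µM simvastatin, and 0.72 ± 0.18 and 2.17 ± 0.17 at 0.6 and 2.4 µM.

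Hmgcs1, the cytosolic synthase that adds the next acetyl group and whose promoter is printed above, was at 6.11 ± 2.16 CPM in batch 1 and 3.28 ± 0.849 CPM in batch 2 in vehicle (mean ± SD over wells, n = 3 and 6). It rose by 2.38 ± 0.20 with 2.4 µM simvastatin and by 2.44 ± 0.20 with 60 µM on the log2 scale, and by 2.05 ± 0.21 with 15 µM ketoconazole, while its value with 0.6 µM was 0.56 ± 0.23 and not called. Mvk, mevalonate kinase, had vehicle levels of 23.6 ± 0.451 CPM in batch 1 and 22.0 ± 1.54 CPM in batch 2. Its rises were smaller, 0.77 ± 0.10 and 1.29 ± 0.09 with the 2 simvastatin concentrations and 1.03 ± 0.10 with 15 µM ketoconazole, and its value with 0.6 µM ketoconazole, 0.18 ± 0.10, was not called. Mvd, the decarboxylase that gives isopentenyl diphosphate, stood at 10.7 ± 2.58 CPM in batch 1 and 3.96 ± 0.859 CPM in batch 2 in vehicle. Log2 fold changes of Mvd were 2.09 ± 0.18, 2.63 ± 0.17 and 2.91 ± 0.17 in the same order, and 0.56 ± 0.19, not called, with 0.6 µM ketoconazole.

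At the isoprenoid branch point the members parted. Fdps, which makes the farnesyl diphosphate used by both the sterol arm and Ggps1, had 75.0 ± 7.09 CPM in batch 1 and 49.3 ± 6.92 CPM in batch 2 in vehicle. It rose in all 4 treatments, by 1.82 ± 0.18, 2.39 ± 0.18, 0.93 ± 0.18 and 3.28 ± 0.19 (2.4 and 60 µM simvastatin, then 0.6 and 15 µM ketoconazole). Ggps1 extends farnesyl diphosphate for the modification of proteins, a use outside sterol synthesis. Ggps1 had 12.2 ± 0.802 CPM in batch 1 and 9.98 ± 1.24 CPM in batch 2 in vehicle, and none of its 4 values was called, at -0.07 ± 0.12, -0.02 ± 0.12, -0.18 ± 0.12 and 0.05 ± 0.12. At the higher concentrations the 95% intervals of its log2 fold change were -0.25 to 0.21 with simvastatin and -0.18 to 0.28 with ketoconazole. By batch, all batch 1 wells lay below those of vehicle in the first 3 treatments (-0.45, -0.15 and -0.52) and overlapped vehicle in batch 2 (0.20, 0.06 and 0.06), none of them called within a batch.

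**Figure D2:**
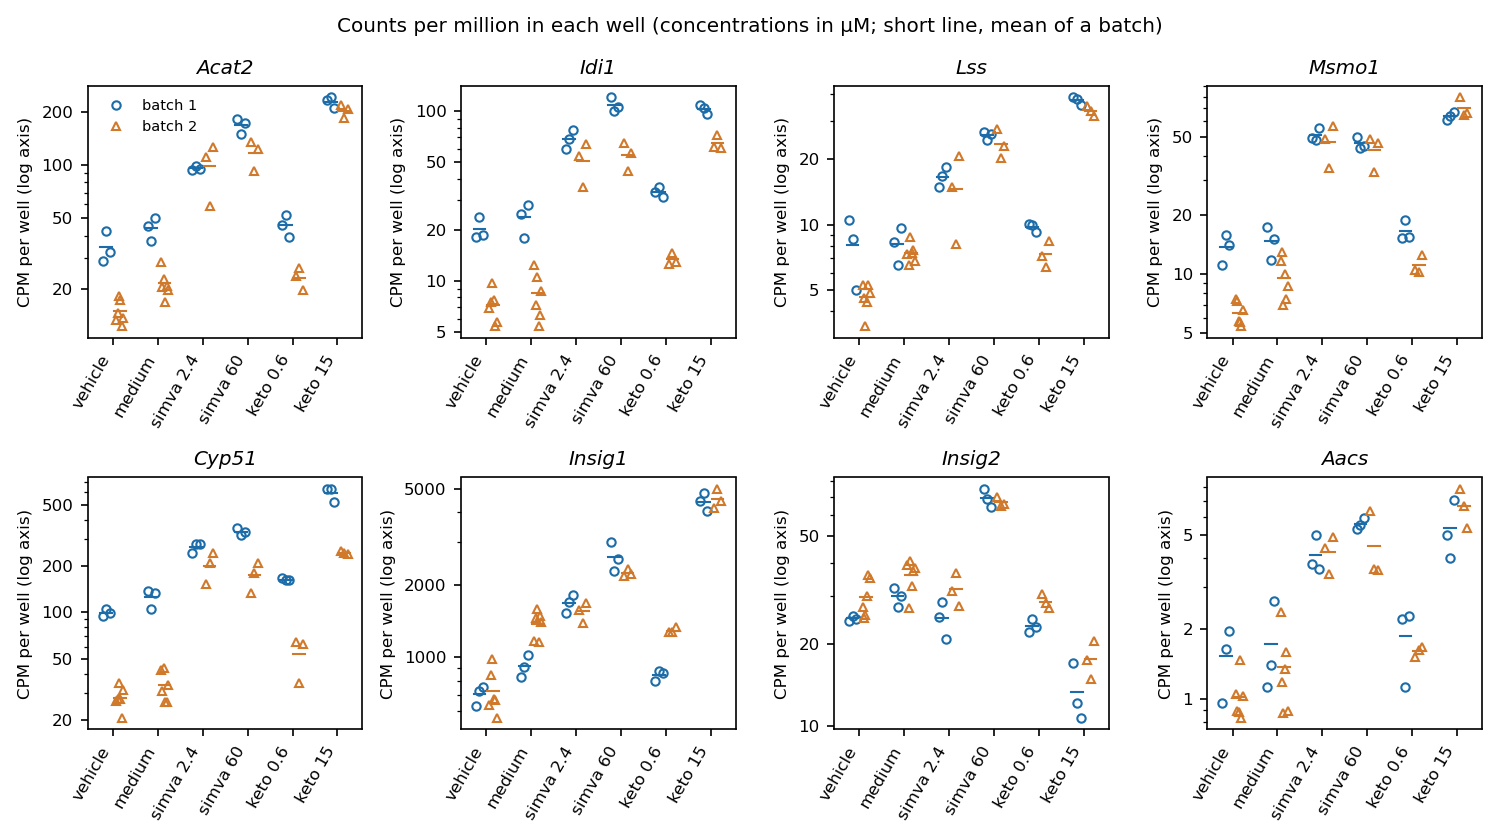
CPM in every well of vehicle, medium, simvastatin (2.4 and 60 µM) and ketoconazole (0.6 and 15 µM) for 8 members, on log axes, with batch 1 as circles, batch 2 as triangles and a short line at the mean of each batch. Insig1 reached between 4025 and 4988 CPM with 15 µM ketoconazole, while Insig2 was above all vehicle wells with 60 µM simvastatin and below them with 15 µM ketoconazole.

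All 3 enzymes from farnesyl diphosphate to lanosterol were called higher in all 4 treatments, though Lss with 0.6 µM ketoconazole overlapped vehicle in batch 1 and was not called against own-plate vehicle (0.67 ± 0.21) or in the ST assay (0.52 ± 0.18). Lss, lanosterol synthase, closes the ring system of the sterols. In batch 1 it was at 10.5, 8.56 and 5.00 CPM in vehicle, 26.6, 24.7 and 26.3 CPM with 60 µM simvastatin and 38.6, 38.1 and 35.6 CPM with 15 µM ketoconazole. In batch 2 it was between 3.40 and 5.28 CPM (median 4.72) in vehicle, then 27.5, 20.3 and 23.1 CPM with simvastatin and 35.3, 33.3 and 31.8 CPM with ketoconazole. The treated wells were all above the vehicle wells of their batch, and the ketoconazole wells all above the simvastatin wells. Log2 fold changes of Lss were 2.18 ± 0.15 and 2.67 ± 0.15 (adjusted p = 4.8e-28 and 3.2e-37), and 1.40 ± 0.15 and 0.63 ± 0.16 at the lower concentrations. Fdft1, squalene synthase, had 102 ± 4.16 CPM in batch 1 and 48.3 ± 5.66 CPM in batch 2 in vehicle and rose by 2.03 ± 0.15 with 60 µM simvastatin and 2.02 ± 0.15 with 15 µM ketoconazole, and by 1.64 ± 0.15 and 0.71 ± 0.15 at 2.4 and 0.6 µM. Sqle, squalene epoxidase, which adds the first oxygen, had 82.2 ± 5.97 CPM in batch 1 and 44.3 ± 7.11 CPM in batch 2 in vehicle. Its rises were 1.59 ± 0.17 and 2.23 ± 0.17 at the higher and 1.33 ± 0.17 and 0.81 ± 0.17 at the lower concentrations.

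From lanosterol to cholesterol, all 6 members tested rose at both simvastatin concentrations and with 15 µM ketoconazole, and 3 of the 6, Cyp51, Msmo1 and Hsd17b7, with 0.6 µM ketoconazole. The greatest rise of the 6 with each drug's higher concentration was that of Msmo1, the oxidase that starts the removal of methyl groups at the same ring carbon. Its batch 1 wells were at 11.1, 15.8 and 14.1 CPM with vehicle, 49.9, 43.7 and 45.0 CPM with 60 µM simvastatin and 60.7, 63.7 and 67.1 CPM with 15 µM ketoconazole. Batch 2 vehicle wells were between 5.42 and 7.51 CPM (median 6.16), against 48.5, 33.0 and 46.5 CPM with simvastatin and 79.1, 64.1 and 65.9 CPM with ketoconazole. Vehicle and treated wells did not overlap in either batch. The log2 fold change was 2.42 ± 0.18 with simvastatin (adjusted p = 7.0e-26) and 2.99 ± 0.18 with ketoconazole (adjusted p = 1.0e-34), and 2.45 ± 0.18 and 0.72 ± 0.19 at the lower concentrations. With 15 µM ketoconazole Cyp51 was at 2.99 as well, and in the ST assay with 60 µM simvastatin Hsd17b7 (2.55) was above Msmo1 (2.33).

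Cyp51, lanosterol demethylase, the rat counterpart of the enzyme azoles are made to inhibit, is also given well by well, a choice made after its values were seen. In batch 1 it was at 94.5, 105 and 99.1 CPM in vehicle, 166, 162 and 161 CPM with 0.6 µM and 626, 631 and 518 CPM with 15 µM ketoconazole, and 355, 316 and 330.3 CPM with 60 µM simvastatin. In batch 2 vehicle wells were between 20.7 and 35.0 CPM (median 27.4), against 64.5, 34.8 and 62.2 CPM, 249, 243 and 237 CPM and 134, 181 and 209.7 CPM. Levels were lower in batch 2 in every group, and 1 of the 6 wells with 0.6 µM ketoconazole, in batch 2, lay within the vehicle range. With 0.6 µM ketoconazole it rose by 1.01 ± 0.21, beside 0.98 ± 0.20 for Idi1, and its value was 0.65 in the ST assay, 1.10 against own-plate vehicle and 0.89, not called, with the wells of each batch added. It rose by 2.99 ± 0.21 with 15 µM, by 2.19 ± 0.21 with 2.4 µM and by 2.35 ± 0.21 with 60 µM simvastatin.

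Hsd17b7, the ketosteroid reductase of the methyl-removing steps, had 9.33 ± 0.870 CPM in batch 1 and 4.02 ± 1.10 CPM in batch 2 in vehicle and rose by 1.61 ± 0.18 and 2.22 ± 0.17 with simvastatin and by 0.75 ± 0.19 and 2.58 ± 0.17 with ketoconazole (lower concentration first), and the call with 0.6 µM was lost against own-plate vehicle (1.01 ± 0.31). Nsdhl, the dehydrogenase of the same steps, moved far less, from 145 ± 11.8 CPM in batch 1 and 105 ± 10.7 CPM in batch 2 in vehicle, by 0.62 ± 0.07, 0.71 ± 0.07 and 0.28 ± 0.07, with 0.18 ± 0.07, not called, at 0.6 µM ketoconazole, and the value with 15 µM was 0.19, not called, in batch 1 alone. Dhcr7, a sterol reductase at the end of the pathway, had 20.6 ± 2.87 CPM in batch 1 and 36.9 ± 4.98 CPM in batch 2 in vehicle. It rose by 1.32 ± 0.14 and 1.49 ± 0.14 with simvastatin and 1.40 ± 0.14 with 15 µM ketoconazole, and its value with 0.6 µM was 0.42 ± 0.14, not called. Lbr, a sterol reductase that is also the lamin B receptor of the nuclear envelope, had 35.4 ± 5.00 CPM in batch 1 and 32.4 ± 3.63 CPM in batch 2 in vehicle and small rises of 0.36 ± 0.09, 0.43 ± 0.09 and 0.42 ± 0.09, with 0.02 ± 0.10, not called, at 0.6 µM ketoconazole, and the value with 2.4 µM simvastatin was 0.28, not called, in batch 1 alone.

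Tm7sf2, the other sterol reductase of Lbr's step, was below the filter, with few reads in vehicle. Its counts in batch 1 were 7, 5 and 8 reads in vehicle, 39, 28 and 22 with 60 µM simvastatin and 36, 44 and 23 with 15 µM ketoconazole, and in batch 2 2, 0, 2, 0, 2 and 1 in vehicle, 21, 18 and 12 and 23, 28 and 15. Treated wells were above vehicle wells in both batches. In the fit without a filter its log2 fold change was 2.82 ± 0.40 and 3.10 ± 0.39 with the higher concentrations of simvastatin and ketoconazole (adjusted p = 2.5e-09 and 6.5e-12).

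The regulators did not move as one. Srebf2, which encodes SREBP2 itself and is one of its own targets, had 159 ± 14.3 CPM in batch 1 and 146 ± 4.87 CPM in batch 2 in vehicle and rose in all 4 treatments, by 0.68 ± 0.06, 0.69 ± 0.06, 0.20 ± 0.06 and 0.54 ± 0.06 (2.4 and 60 µM simvastatin, then 0.6 and 15 µM ketoconazole). With 0.6 µM ketoconazole its wells overlapped vehicle in both batches, and against own-plate vehicle in batch 2, with fewer wells, the value was 0.20 ± 0.09 and not called. Scap, the escort of SREBP2, had 41.4 ± 3.09 CPM in batch 1 and 40.7 ± 3.98 CPM in batch 2 in vehicle, and none of its 4 values was called, at 0.10 ± 0.12, 0.15 ± 0.12, -0.15 ± 0.12 and -0.10 ± 0.12.

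Insig1, an SREBP2 target whose product holds SCAP back, rose in all 4 treatments. In batch 1 it was at 627, 727 and 756 CPM in vehicle, 3015, 2268 and 2556 CPM with 60 µM simvastatin and 4457, 4779 and 4025 CPM with 15 µM ketoconazole. Batch 2 vehicle wells were between 559 and 986 CPM (median 669), simvastatin wells at 2181, 2331 and 2213 CPM and ketoconazole wells at 4170.3, 4988 and 4463 CPM. Vehicle, simvastatin and ketoconazole wells were in that order without overlap in both batches. The log2 fold change was 1.90 ± 0.14 with simvastatin (adjusted p = 3.2e-26) and 2.74 ± 0.14 with ketoconazole (adjusted p = 2.9e-41), and 1.19 ± 0.14 and 0.67 ± 0.14 at the lower concentrations.

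Insig2, the paralog with the same holding role, moved in opposite directions with the 2 drugs, and its wells are given because of this. In batch 1 it was at 24.4, 25.5 and 24.8 CPM in vehicle, 74.7, 68.5 and 64.3 CPM with 60 µM simvastatin and 17.1, 12.2 and 10.7 CPM with 15 µM ketoconazole. In batch 2 vehicle wells were between 24.9 and 36.0 CPM (median 28.8), simvastatin wells at 69.7, 64.7 and 66.0 CPM and ketoconazole wells at 17.5, 14.9 and 20.5 CPM. In both batches simvastatin lay wholly above and ketoconazole wholly below the vehicle wells. Log2 fold changes were 1.39 ± 0.13 (adjusted p = 9.4e-18) and -0.77 ± 0.15 (adjusted p = 2.1e-06). At the lower concentrations they were 0.02 ± 0.14 and -0.01 ± 0.14, neither called. The hepatocyte markers also fell with 15 µM ketoconazole, 5 of 6 of them called lower with a median log2 fold change of -1.20, and the part of that in the Insig2 value was not tested.

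Among the transport and other members, Aacs, which activates acetoacetate to acetoacetyl-CoA in the cytosol, rose most. It had few reads, 8, 9 and 11 in the batch 1 vehicle wells and 7, 6, 6, 10, 6 and 6 in those of batch 2. The minimum of 10 reads was a mean over all wells, treated ones included (13.2 for Aacs). The vehicle wells of Aacs alone would not have met it, so its place among these members is only a description. In CPM the batch 1 wells of Aacs were at 0.968, 1.64 and 1.96 in vehicle, 5.30, 5.52 and 5.91 with 60 µM simvastatin and 5.01, 4.00 and 7.07 with 15 µM ketoconazole. Batch 2 vehicle wells were between 0.833 and 1.47 CPM (median 0.963), against 6.33, 3.61 and 3.55 and 7.88, 6.64 and 5.39 CPM. Vehicle and treated wells did not overlap within a batch. Its log2 fold changes were 1.80 ± 0.26 and 2.17 ± 0.26 with simvastatin and 2.41 ± 0.25 with 15 µM ketoconazole, and 0.62 ± 0.30, not called, with 0.6 µM. Stard4, a sterol carrier of the cytosol, had 47.4 ± 8.99 CPM in batch 1 and 27.8 ± 4.59 CPM in batch 2 in vehicle and rose by 0.91 ± 0.13, 1.10 ± 0.13 and 1.40 ± 0.13, with 0.39 ± 0.14, not called, at 0.6 µM ketoconazole, which was 0.85 ± 0.17 and called against own-plate vehicle in batch 2. Tmem97, a membrane protein of sterol handling, had 19.2 ± 3.50 CPM in batch 1 and 14.3 ± 1.70 CPM in batch 2 in vehicle. Its rises were 0.75 ± 0.17, 0.75 ± 0.17 and 0.54 ± 0.17, with 0.15 ± 0.17, not called, at 0.6 µM ketoconazole. In batch 1 alone Tmem97 was called in none of these 3 treatments, at 0.31, 0.47 and 0.02, and its wells overlapped those of vehicle, against 1.08, 0.99 and 0.95, all called, in batch 2. The ST assay did not call Tmem97 with 2.4 µM simvastatin (0.50 ± 0.20). Npc1, which exports cholesterol from lysosomes, had 49.4 ± 6.63 CPM in batch 1 and 59.8 ± 2.06 CPM in batch 2 in vehicle and rose with 15 µM ketoconazole alone of the 4, by 0.63 ± 0.09. Its other values were -0.11 ± 0.10, 0.06 ± 0.10 and 0.25 ± 0.10.

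The drugs were then set against each other, although their molar concentrations differ and they sat on different plates, so that plate and drug cannot be told apart in the pooled values. With 60 µM simvastatin against 15 µM ketoconazole, 4 members were higher with simvastatin, against 22.9% of all genes, and 8 lower, against 23.2%. In either direction 50.0% of the members were called, near the share of all genes (4693 of 10191). These counts are therefore no result about the members as a set. The greatest difference was that of Insig2, 2.16 ± 0.16 on the log2 scale (adjusted p = 3.4e-27). The other 3 members higher with simvastatin were Mvk (0.26 ± 0.10), Nsdhl (0.44 ± 0.07) and Srebf2 (0.15 ± 0.06). Higher with ketoconazole were Fdps (-0.90 ± 0.20), Insig1 (-0.84 ± 0.15), Sqle (-0.64 ± 0.18), Cyp51 (-0.64 ± 0.23), Acat2 (-0.59 ± 0.18), Msmo1 (-0.57 ± 0.18), Npc1 (-0.57 ± 0.11) and Lss (-0.50 ± 0.15). The differences of Idi1, Fdft1 and Lbr were not called, with 95% intervals of -0.43 to 0.34, -0.32 to 0.33 and -0.18 to 0.22, while Idi1 was at -0.60 ± 0.34, not called, against own-plate vehicle and Lbr at -0.25, called, in the ST assay. In batch 2, with each drug set against the vehicle wells of its own plate, 1 member, Insig2 (2.29 ± 0.26), was higher with simvastatin and 7 were lower. There Mvk (0.38), Nsdhl (0.12), Srebf2 (0.14), Lss (-0.38) and Cyp51 (-0.65) were not called and Stard4 (-0.79) was, and with the wells of each batch added the counts were 2 and 3. They were 2 and 5 in batch 1 alone and 2 and 10 in batch 2 alone.

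At the lower concentrations most members were higher with simvastatin. With 2.4 µM simvastatin against 0.6 µM ketoconazole, 20 members were higher, against 7.1% of all genes, and 1 lower, against 8.68%. The greatest differences were those of Hmgcs1 (1.82 ± 0.23), Msmo1 (1.72 ± 0.20), Mvd (1.53 ± 0.19) and Acat2 (1.45 ± 0.19). Npc1 was the member that was lower (-0.36 ± 0.11), and Ggps1, Scap and Insig2 were not called. Within batch 2 and against own-plate vehicle 14 members were higher and 0 lower, where Npc1 was at -0.43 ± 0.16 (unadjusted p = 0.0082) and Insig1 turned from 0.52 ± 0.15 to -0.23 ± 0.24, not called. Also not called there were Stard4 (0.02), Sqle (0.28), Lbr (0.46), Hsd17b7 (0.76) and Aacs (1.52), and the ST assay did not call Npc1 (-0.20) or Tmem97 (0.45). Batch 1 alone gave 13 higher, and 9 were higher with the wells of each batch added.

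The higher and lower concentrations of each drug were then compared, and the difference between the steps of the 2 drugs was not tested. From 2.4 to 60 µM simvastatin 8 members were higher, against 12% of all genes, and 0 lower, against 12%, with 0 lower also at an unadjusted p below 0.05 and by DESeq2. The 8 were Insig2 (1.38 ± 0.15), Lss (0.77 ± 0.16), Insig1 (0.71 ± 0.15), Acat2 (0.64 ± 0.18), Hsd17b7 (0.62 ± 0.18), Fdps (0.56 ± 0.20), Mvd (0.54 ± 0.18) and Mvk (0.52 ± 0.10). The ST assay did not call Acat2 (0.37) or Fdps (0.38). The difference was not called for Hmgcs1, Msmo1 and Srebf2, among others, with 95% intervals of -0.34 to 0.46, -0.39 to 0.33 and -0.11 to 0.14. From 0.6 to 15 µM ketoconazole 19 members were higher, against 20.2% of all genes, led by Acat2 (2.68 ± 0.19), Fdps (2.36 ± 0.21) and Mvd (2.35 ± 0.19), and 1 lower, Insig2 (-0.76 ± 0.16), against 21.5%. For simvastatin the count was 11 in batch 1 alone, 4 in batch 2 alone and 3 with the wells of each batch added, and for ketoconazole 18, 21 and 18.

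The members called in both batches in the same direction were 18 of 24 with 2.4 µM simvastatin, 20 with 60 µM, 2 with 0.6 µM ketoconazole and 20 with 15 µM. The number of members with the same sign in both batches was 23 of 24 with 2.4 µM simvastatin, 22 with 60 µM, 21 with 0.6 µM ketoconazole and 23 with 15 µM. Neither kind of agreement was counted over all genes, so these numbers describe the members alone. The difference of the fold changes between batches was called for 4 members with 2.4 µM simvastatin, against 0.137% of all genes, and for 5 with 15 µM ketoconazole, against 3.29%, all 9 with the larger rise in batch 2. Cyp51 with 2.4 µM simvastatin rose by 1.42 in batch 1 and 2.80 in batch 2, and Mvd with 15 µM ketoconazole by 2.25 and 3.48. With 60 µM simvastatin no member was called between batches, against 0.599% of all genes, and with 0.6 µM ketoconazole none, against 0% of all genes, while 9 and 4 members had an unadjusted p below 0.05 and DESeq2 called 0 in both. Vehicle levels of many of these genes were lower in batch 2, as the values of Idi1 and Cyp51 above show.

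**Figure D3:**
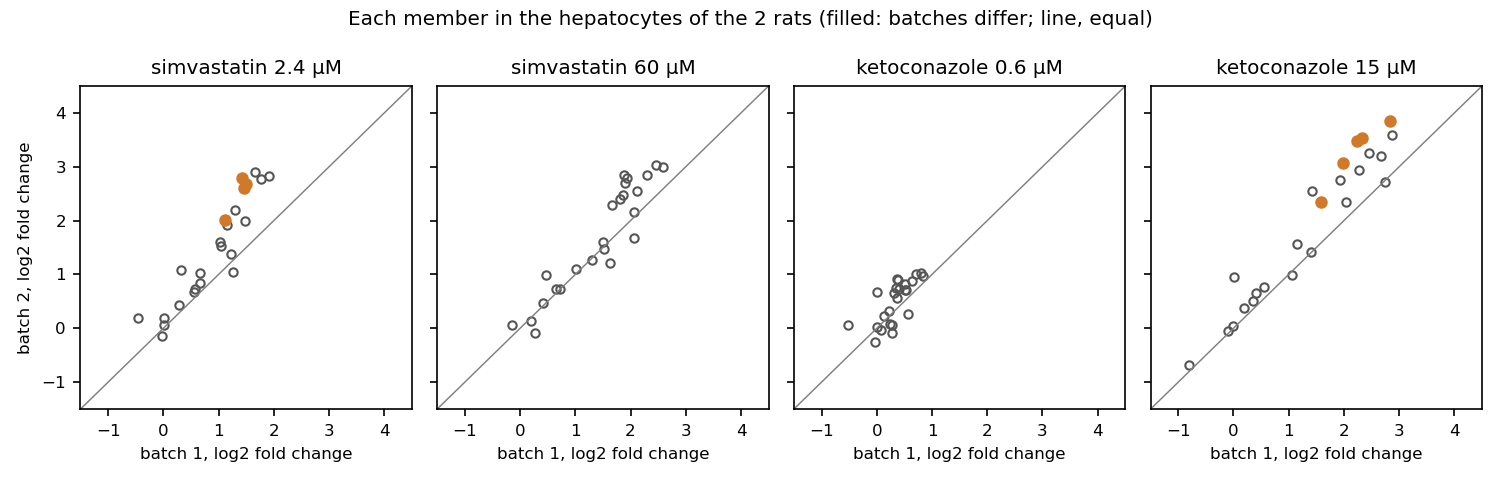
Log2 fold change of each of the 24 members in batch 1 (x axis) and batch 2 (y axis), for the 2 concentrations of simvastatin and ketoconazole. Each batch held the cells of 1 rat, with a library preparation and sequencing run of its own. Filled points are members called as different between batches, 4 with 2.4 µM simvastatin and 5 with 15 µM ketoconazole, and all lie above the line of equal change.

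Rises of the pathway were not confined to the sterol drugs. Over the other 24 treatments 195 tests of a member were called higher and 46 lower, which is 33.9% and 7.99% of 576 tests of members, against 16.1% and 15.8% of all 244584 gene tests in those treatments. Without batch 2 the counts were 106 and 70, and with the wells of each batch added 109 and 28. In some of them the share of members called was at or under that of all genes. These counts share the vehicle wells and are not independent. With WY14643, an agonist of the nuclear receptor PPARα, 17 members were higher and 2 lower at 8 µM, and 17 higher and 1 lower at 200 µM, where 56.2% and 51.3% of all genes were called in either direction. Insig1 rose most, by 2.64 ± 0.14 and 2.41 ± 0.14. The lowest called values were Insig2 at 8 µM (-0.33 ± 0.14, not called with RLE scaling, in batch 1 alone or with the wells of each batch added) and Lbr at 200 µM (-0.33 ± 0.10, not called against own-plate vehicle or with the wells of each batch added). Hmgcs1 was at 2.51 ± 0.21 with 8 µM, beside 2.44 ± 0.20 with 60 µM simvastatin, a pair that was not tested. In batch 2, against the vehicle of the same plate, the counts were 17 higher and 1 lower at 8 µM and 16 and 1 at 200 µM. With 200 µM the summed hepatocyte markers were between 29678 and 34730 CPM, below every vehicle well (36464 to 43952). Their part in these values was not tested.

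Sulfasalazine, an aminosalicylate prodrug, gave 17 members higher and 1 lower at 100 µM, against 41% of all genes called, and 9 higher at 4 µM, against 17.4%. At 100 µM Insig1 rose most (2.02 ± 0.14) and Lbr fell (-0.24 ± 0.10), a call lost in batch 1 alone (-0.11), with the wells of each batch added (-0.25) and in the ST assay (-0.18), and at 4 µM Sqle rose most (0.86 ± 0.17). At 4 µM batch 1 alone gave 1 higher and batch 2 alone 12, and none was called with the wells of each batch added.

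Among the nonsteroidal anti-inflammatory drugs, indomethacin gave calls at both concentrations. At 12 µM 17 members were higher, against 5.87% of all genes, with the greatest rise for Fdps (1.40 ± 0.18). At 300 µM 11 were higher and 1 lower, against 54.7%, with Insig1 at 2.12 ± 0.14 and Lbr at -0.45 ± 0.10, while Idi1 and Hmgcs1 were at -0.10 ± 0.22 and 0.04 ± 0.24 and not called. The share of members called at 300 µM, 50.0%, was under that of all genes. At 12 µM batch 1 alone gave 10 higher and batch 2 alone 14, and at 300 µM they gave 7 higher and 4 lower, and 14 and 1. With the wells of each batch added 0 were called at 12 µM, and 9 higher and 1 lower at 300 µM. Naproxen gave 15 members higher at 80 µM, against 16%, and 15 higher and 2 lower at 2000 µM, against 53.8%. Insig1 rose most with naproxen, by 1.31 ± 0.14 and 2.31 ± 0.14, and Nsdhl fell at 2000 µM (-0.37 ± 0.07). Batch 1 alone gave 4 higher at 80 µM, and 5 higher and 3 lower at 2000 µM, and batch 2 alone 12, and 18 and 1. With the wells of each batch added, 1 was higher at 80 µM and 6 at 2000 µM. Diclofenac at 400 µM gave 7 higher and 8 lower, against 71.7% of all genes, a share no greater than that of all genes. There Insig1 rose (1.95 ± 0.14) and Dhcr7 fell (-1.78 ± 0.16), and batch 1 alone gave 3 higher and 11 lower, batch 2 alone 12 and 7.

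**Figure D4:**
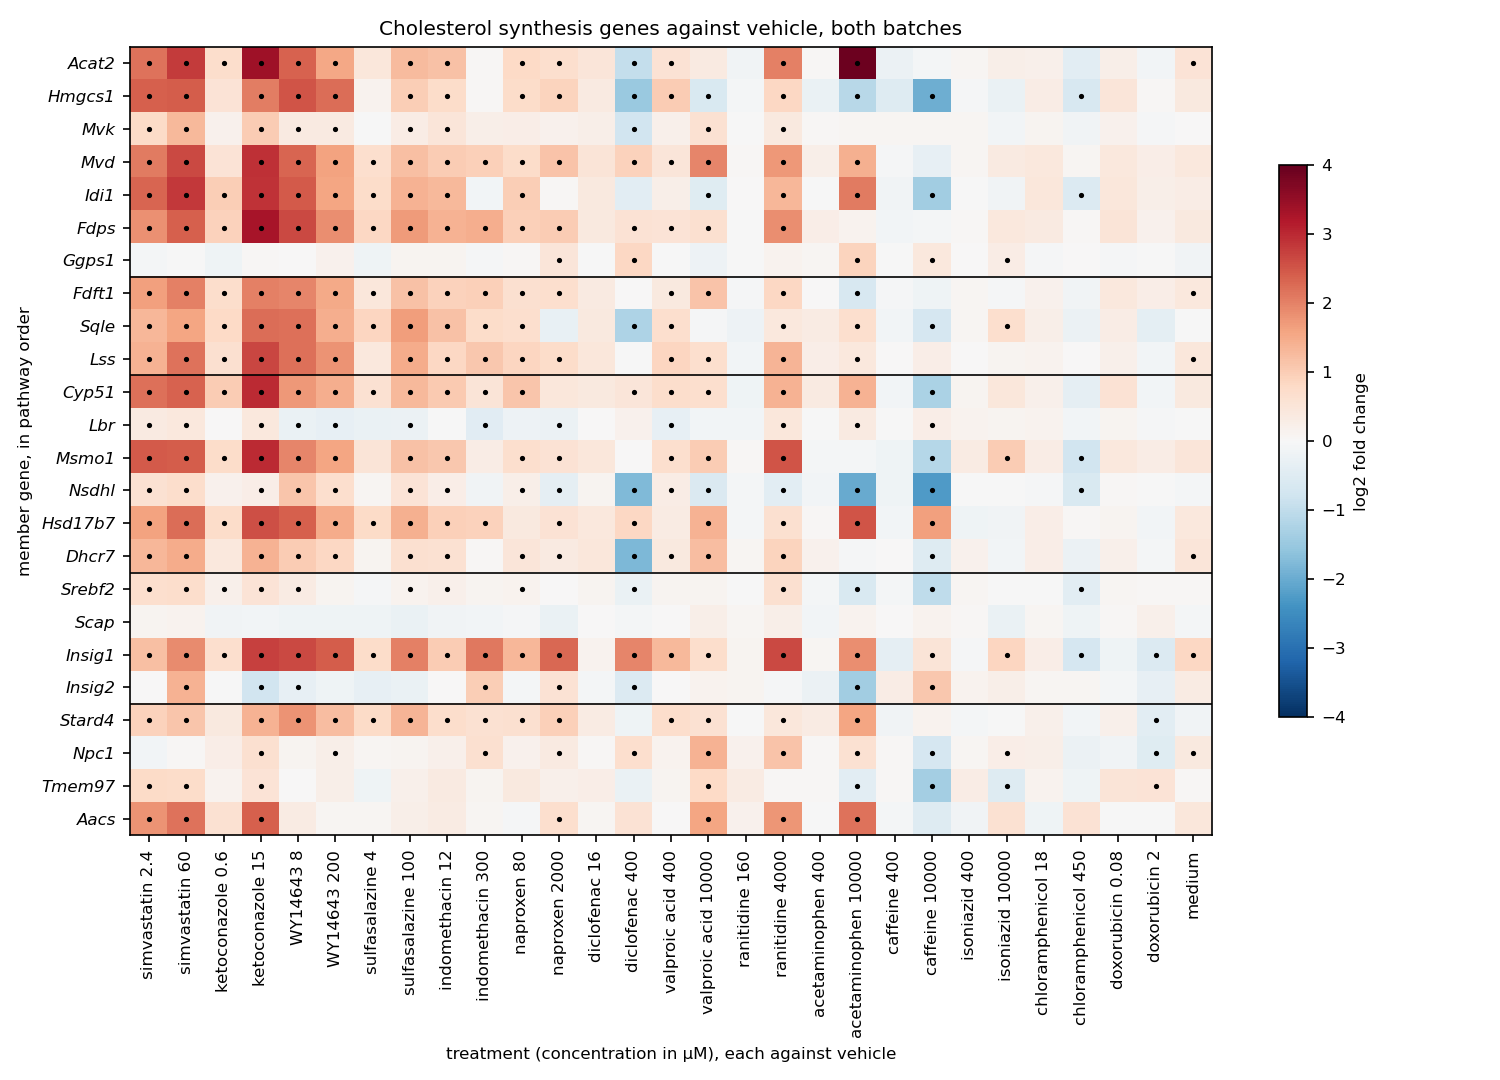
Log2 fold change against vehicle of the 24 members (rows, in pathway order, with lines between the 5 groups of the pathway) in the 28 treatments and medium (columns, concentrations in µM), from blue (lower) to red (higher), with a dot where a member was called. Acat2 with 10000 µM acetaminophen, at 3.94, is the greatest value, and the Insig1 row holds the most dots for rises.

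In several of the treatments at the highest concentrations, the members split. Valproic acid, an anticonvulsant fatty acid, gave 14 members higher and 3 lower at 10000 µM, against 66.7% of all genes, with Mvd at 1.95 ± 0.18 and Hmgcs1 at -0.60 ± 0.25. The share of members called there, 70.8%, was near that of all genes. The Hmgcs1 value was -1.15, called, in batch 1 alone and -0.17, not called, in batch 2 alone, and the call was also lost against own-plate vehicle (-0.24), with the wells of each batch added (-0.69) and with scaling by total counts (-0.33), while the ST value was -1.03 and called. At 400 µM 13 were higher and 1 lower, against 29.1%, with Insig1 at 1.30 ± 0.14 and Lbr at -0.33 ± 0.10, but batch 1 alone gave 1 higher and 2 lower, and batch 2 alone 17 higher. With the wells of each batch added 2 were higher and 0 lower, and the Lbr value was not called there (-0.34), in batch 2 alone (-0.25) or against own-plate vehicle (-0.25). At 10000 µM batch 1 alone gave 6 higher and 6 lower and batch 2 alone 17 and 1, and the Mvd rise was 0.92 in batch 1 and 2.78 in batch 2. Ranitidine, which blocks histamine receptors of the stomach, gave 19 higher and 1 lower at 4000 µM, against 66.2% of all genes. Insig1 (2.65 ± 0.14) and Msmo1 (2.53 ± 0.18) rose most there, and Nsdhl fell (-0.42 ± 0.07).

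Acetaminophen at 10000 µM gave 13 higher and 6 lower, against 78.9% of all genes called, so that the share of members was at that of all genes. The largest single rise of any member in any treatment was that of Acat2 there, 3.94 ± 0.17, while Hmgcs1, the next enzyme, was at -1.12 ± 0.29 and Nsdhl fell most (-2.01 ± 0.08). Caffeine at 10000 µM gave 5 higher and 10 lower, against 66.2%, with Hsd17b7 at 1.64 ± 0.18 and Nsdhl at -2.25 ± 0.08, the 2 enzymes of the same steps on opposite sides. The share of members called with caffeine, 62.5%, was also no greater than that of all genes. Hmgcs1 was at -1.96 ± 0.31 with caffeine, the lowest value of that gene over the 28 treatments. Batch 1 alone gave 9 higher and 8 lower with acetaminophen and 3 and 13 with caffeine, and batch 2 alone 16 and 4, and 9 and 9. The summed hepatocyte markers were at a median of 26332 CPM with 10000 µM acetaminophen, 20678 with 10000 µM caffeine, 8003 with 400 µM diclofenac, 13232 with 4000 µM ranitidine, 17715 with 10000 µM valproic acid, 19959 with 2000 µM naproxen, 23995 with 450 µM chloramphenicol, 26127 with 300 µM indomethacin, 27595 with 10000 µM isoniazid and 28547 with 2 µM doxorubicin, all below the vehicle median of 41335, and their part in these results was not tested. The summed Kupffer cell and leukocyte markers were between 3.60 and 7.71 CPM with 2 µM doxorubicin and between 5.38 and 13.7 with 10000 µM caffeine. They were between 8.68 and 17.0 CPM with 300 µM indomethacin and between 12.7 and 18.5 with 10000 µM valproic acid, against 19.4 to 40.1 in vehicle. Stellate cell and fibroblast markers were between 0.805 and 5.12 CPM with doxorubicin, against 13.4 to 40.6 in vehicle. Their part was not tested either.

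Fewer members moved with the other chemicals. Isoniazid at 10000 µM gave 5 higher and 1 lower, against 34.7% of all genes, with Msmo1 at 1.01 ± 0.19, which was 0.15 in batch 1 and 1.64 in batch 2, and Tmem97 at -0.53 ± 0.18, not called in batch 2 alone (-0.47) or against own-plate vehicle (-0.41). Chloramphenicol, an antibiotic, gave 0 higher and 6 lower at 450 µM, against 33.3%, with the greatest fall for Msmo1 (-0.76 ± 0.21), which was not called against own-plate vehicle (-0.50) or with the wells of each batch added (-0.89). At an unadjusted p below 0.05 1 member was higher there, against 21.2% of all genes, and DESeq2 called 0. Doxorubicin at 2 µM gave 1 higher, Tmem97 (0.54 ± 0.17), and 3 lower, with Insig1 lowest (-0.56 ± 0.14), against 19.4% of all genes. Neither was called in batch 1 alone (0.28 for Tmem97 and -0.31 for Insig1), while Insig1 was called in batch 2 alone (-0.91) and against own-plate vehicle (-1.08), and Tmem97 not in the ST assay (0.47). The share of members was below that of all genes in these 3 treatments. Batch 1 alone gave 1 higher and 5 lower with isoniazid, 0 and 10 with chloramphenicol and 0 and 5 with doxorubicin, and batch 2 alone 10 and 0, 2 and 5, and 6 and 3. With the wells of each batch added, 1 was higher and 0 lower with isoniazid, 0 and 2 with chloramphenicol, and 0 and 0 with doxorubicin.

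No member was called by edgeR in 7 treatments, all of them lower concentrations, nor by DESeq2. The share of all genes called was 1.38% with 400 µM acetaminophen, 0.118% with 400 µM caffeine, 0.0883% with 18 µM chloramphenicol, 0.137% with 16 µM diclofenac, 1.32% with 0.08 µM doxorubicin, 0.0196% with 400 µM isoniazid and 0.0589% with 160 µM ranitidine. At an unadjusted p below 0.05, 11 members were higher with 16 µM diclofenac, against 4.08% of all genes, 8 with 0.08 µM doxorubicin, against 5.99%, and 4 with chloramphenicol, against 4.04%. At the same threshold 1 member each was higher with acetaminophen (5.69% of all genes) and caffeine (2.94%), 0 with isoniazid (2.14%) and ranitidine (2.71%), and 3 were lower with caffeine (2.56%). Vehicle on plate 3 against vehicle on plate 2 (batch 2) gave 1423 of 10191 genes with an unadjusted p below 0.05, and 0 called after adjustment. Of the 24 members 4 were among the 1423, Insig1 (-0.36), Insig2 (0.40), Nsdhl (-0.23) and Stard4 (-0.34). Batch 2 alone called 9 members higher and 1 lower with 0.08 µM doxorubicin, 3 higher with 18 µM chloramphenicol and 1 higher with 400 µM acetaminophen. Batch 1 alone called 1 lower with 160 µM ranitidine.

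**Figure D5:**
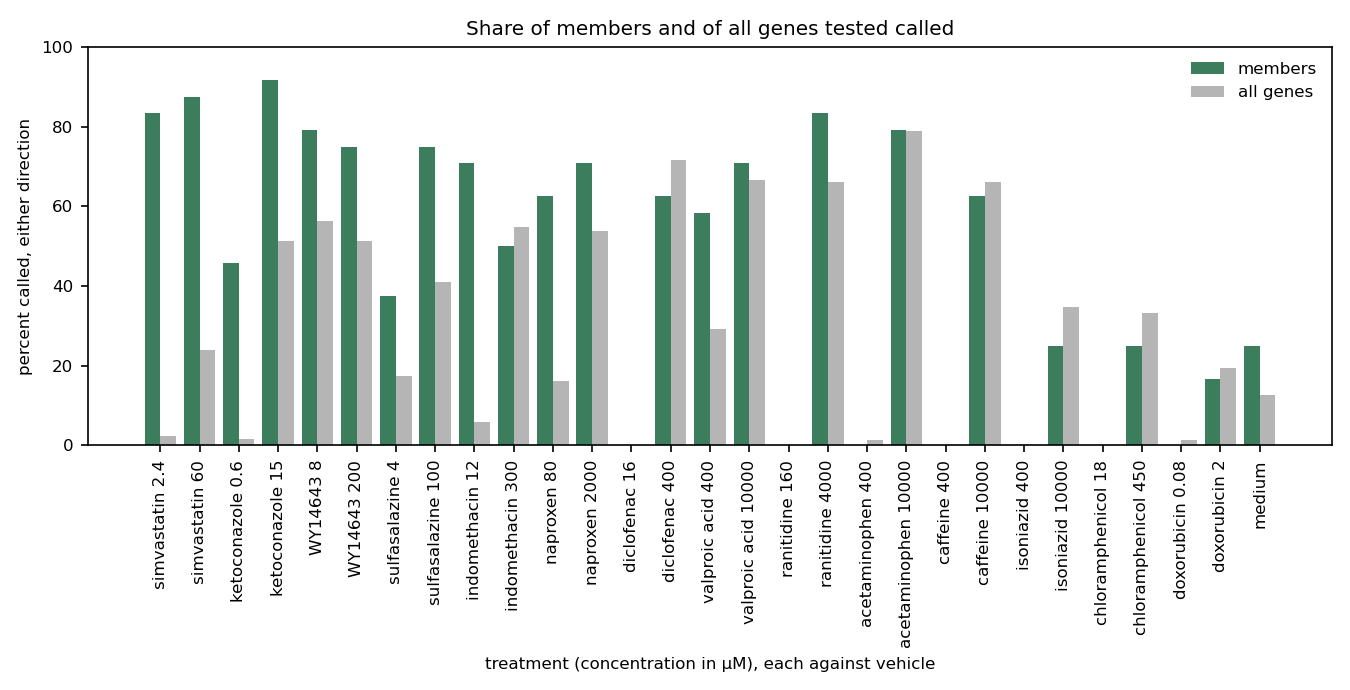
Percent of the 24 members (green) and of the 10191 genes tested (grey) called in either direction against vehicle, for the 28 treatments (concentrations in µM) and medium. The members' bar stands far above that of all genes with 2.4 µM simvastatin, 0.6 µM ketoconazole and 12 µM indomethacin, and beside or below it with 10000 µM acetaminophen, 10000 µM caffeine and 400 µM diclofenac.

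Medium alone differed from vehicle in the same direction as the drugs. Without DMSO 6 members were higher, against 7.51% of all genes, and 0 lower, against 5.1%. Insig1 rose most, by 0.83 ± 0.13, followed by Acat2 (0.54 ± 0.16), Dhcr7 (0.49 ± 0.13), Lss (0.47 ± 0.15), Fdft1 (0.42 ± 0.14) and Npc1 (0.39 ± 0.09). The 3 medium wells of batch 1 had 826, 912 and 1024 CPM of Insig1, and the 6 of batch 2 were between 1160.1 and 1580.3 CPM (median 1429), in each batch above every vehicle well. DESeq2 called 8 higher and 0 lower, and no member had an unadjusted p below 0.05 on the lower side. The count was 1 higher in batch 1 alone and 8 in batch 2 alone, and none was called with the wells of each batch added. In the ST assay 4 of the 6, Acat2 (0.32), Dhcr7 (0.26), Fdft1 (0.35) and Lss (0.26), were not called, while Hsd17b7, Msmo1 and Mvd were, with Insig1 and Npc1.

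Members differed in how widely they moved. Insig1 was called higher in 19 of 28 treatments and lower in 2, the widest reach of the 24. Mvd, Fdps and Hsd17b7 were each higher in 16 and lower in none, Cyp51 was higher in 16 and lower in 1, and Lss higher in 15 and lower in none. Nsdhl was higher in 9 and lower in 7, with values from 1.12 to -2.25, Hmgcs1 higher in 11 and lower in 5, and Lbr higher in 6 and lower in 6. Insig2 was higher in 4, lower in 4. Ggps1 was higher in 5, all of them treatments at the higher concentration (acetaminophen, diclofenac, naproxen, caffeine and isoniazid), with its greatest value at 0.90 ± 0.11 with acetaminophen. Scap was called in none of the 28, with values from -0.28 to 0.23.

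Other genes of lipid metabolism were counted from lists chosen by pathway. Of 12 genes of fatty acid synthesis under SREBP1, 11 were higher with 15 µM ketoconazole and 6 higher and 1 lower with 60 µM simvastatin, with medians of 1.42 and 0.52, against 25.0% of all genes higher with ketoconazole, and 11.4% higher and 12.5% lower with simvastatin. In medium alone 6 of the 12 were higher, against 7.51% of all genes, with Scd at 2.78 ± 0.17. Elovl6, a fatty acid elongase, rose by 3.48 ± 0.31 and 2.43 ± 0.33, Scd, a desaturase, by 2.59 ± 0.18 and 2.22 ± 0.18, and Fasn, fatty acid synthase, by 2.42 ± 0.16 and 1.26 ± 0.16. Srebf1, which encodes SREBP1, parted, at 0.45 ± 0.13 with ketoconazole and -0.56 ± 0.14 with simvastatin, both called. At the lower concentrations 3 rose with ketoconazole and 4 with simvastatin, against 0.844% and 1.13% of all genes. Set against each other at the higher concentrations, 9 of the 12 were lower with simvastatin than with ketoconazole, against 23.2% of all genes. Thrsp, at 0.27 ± 0.18 and not called, was the only value above 0.

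Of 5 tested genes of the sterol-sensing receptor LXR and of sterol efflux, 3 (Abcg1, Abca1 and Mylip) were lower with 60 µM simvastatin, where 12.5% of all genes were, and 2 (Abcg1 and Nr1h3, which encodes LXRα) with 15 µM ketoconazole, where 26.3% were. Abcg1, a sterol exporter, fell, with log2 fold changes of -2.50 ± 0.27 and -1.95 ± 0.25, and Abca1, the main exporter to apolipoprotein A-I, was at -0.96 ± 0.19, called, and -0.33 ± 0.18, not called. Mylip was at -0.82 ± 0.29, called, and -0.19 ± 0.27, not called. Of 10 genes that use isoprenoids, 2 were higher with 60 µM simvastatin, Rhoa (0.39 ± 0.08) and Nus1 (0.30 ± 0.11), and 3 higher and 1 lower with 15 µM ketoconazole, with Rabggtb, a subunit of the transferase that prenylates RAB proteins, at 1.50 ± 0.17. Of all genes 11.4% were higher with simvastatin, and 25.0% higher and 26.3% lower with ketoconazole, so these counts are no result about the list. Of 11 genes of sterol storage, sensing and processing, each drug's higher concentration gave 4 higher and 1 lower, against 11.4% and 12.5% of all genes with simvastatin and 25.0% and 26.3% with ketoconazole. With ketoconazole the counts are again no result about the list. Soat1, which esterifies cholesterol, fell with simvastatin (-1.95 ± 0.60) and was at 0.57 ± 0.42, not called, with ketoconazole, while Npc2, the soluble partner of Npc1, rose by 1.09 ± 0.10 and 0.29 ± 0.10 with ketoconazole and simvastatin.

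The ST assay, run on the same lysates, held 17 members that passed the filter, all by the same probe number as in the WT assay. The WT and ST log2 fold changes of these 17 differed by a median of 0.10 with 60 µM simvastatin, 0.07 with 15 µM ketoconazole, 0.05 with 2.4 µM simvastatin and 0.09 with 0.6 µM ketoconazole. The largest gap was that of Cyp51 with 60 µM simvastatin, 0.48. The call was the same for 17, 17, 16 and 16 of the 17 in that order. In medium the WT and ST values differed by a median of 0.15, and the call was the same for 10 of the 17. Insig2 had no ST value.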

How the data were processed

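TempO-Seq libraries of 186 wells were read with the WT and ST assays. The deposited values were raw read counts per probe, which the authors made by aligning reads with STAR 2.5.3a to the rat genome (rn6) and counting with the assay maker's package, without normalization. Wells were grouped by the labels for chemical, concentration and batch. Probes of 1 gene symbol were added, genes with a mean under 10 reads left out, and treatments compared with vehicle by edgeR 4.0.16 (R 4.3.3; TMM, quasi-likelihood test, all wells in 1 fit, batch as a term, Benjamini-Hochberg over 10191 genes, threshold 0.05), tested on simulated data. The spread between wells is technical, and depth, 2289425 to 8975207 WT reads per well, limits low genes such as Aacs. The members and lists were chosen with earlier results of these data known. All members were to be named, with every well for the largest called change in each of 5 pathway groups at the higher concentration of simvastatin and ketoconazole, and in other treatments the largest rise and fall. Insig2, Cyp51, Tm7sf2 and further members named in other treatments were chosen after their values were seen. Alternatives were DESeq2 1.42.0, RLE and total-count scaling, no filter, a fold minimum, each probe by itself, each batch alone, wells added per batch, own-plate vehicle, only the compared wells, and the ST assay. Promoter windows are from RefSeq (GRCr8). No protein sequences were used here.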

Additional observations from a re-analysis of the deposited data

Results flagged for a closer look

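The response of 9 of 96 member values tested differed between the 2 batches, by the interaction of batch and treatment (edgeR, adjusted p below 0.05). Rat, library preparation and sequencing run cannot be told apart in these differences. With 15 µM ketoconazole the log2 fold change was larger in batch 2 by 1.01 for Acat2, 0.76 for Fdft1, 1.08 for Hsd17b7, 1.20 for Msmo1 and 1.22 for Mvd. With 2.4 µM simvastatin it was larger in batch 2 by 1.17 for Acat2, 1.36 for Cyp51, 0.88 for Fdft1 and 1.12 for Mvd. In batch 1 ketoconazole had no vehicle on its plate.

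A well stood far from the other 5 of its group in 4 of 144 groups checked, where chance gives about 1 in 20. The Fdft1 level of 1 vehicle well of batch 2 was 37.3 CPM, and the Aacs level of 1 vehicle well of batch 2 was 1.47 CPM. On the log2 scale and relative to the vehicle mean of its batch, Sqle in 1 well with 60 µM simvastatin was at 1.09 and Aacs in 1 well with 0.6 µM ketoconazole at -0.22.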

How the results depend on the processing

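No paired analysis was possible because the labels carry no replicate numbers for wells, while batch was a term of each fit over both batches. Batch stands for the rat together with its library preparation and sequencing run. Only 2 rats were used, wells are technical replicates, and 6 chemicals (ketoconazole, acetaminophen, chloramphenicol, indomethacin, sulfasalazine and WY14643) have no vehicle on their plate in batch 1. Of the counts of members called, those for simvastatin against vehicle and for members higher with 15 µM ketoconazole stayed within 1.5 times under every alternative run. Where others did not, the cause was not tested. With a fold change of at least 2 (log2 of 1) required, 1 member was higher with 0.6 µM ketoconazole, 0 lower with 15 µM and 0 higher in medium, and over the other 24 treatments 87 calls were higher and 14 lower. Without batch 2, 2 members were higher with 0.6 µM ketoconazole, 1 in medium, 2 and 5 were higher and lower between the higher concentrations of the drugs, 13 and 0 between the lower ones, and 106 and 70 calls were made in the other treatments. Without batch 1, 2 members were higher with 60 µM simvastatin than with 15 µM ketoconazole and 4 higher with 60 than with 2.4 µM simvastatin. With wells added per batch, these counts were 0 for 0.6 µM ketoconazole, 0 for medium, 2 and 3 between the higher and 9 and 0 between the lower concentrations, 3 for the simvastatin step, and 109 and 28 for the other treatments. With vehicle of the same plate in batch 2, 1 member was higher between the higher and 0 lower between the lower concentrations, and Insig1 with 2.4 µM simvastatin against 0.6 µM ketoconazole turned to -0.23. In the ST assay, which lacks Insig2, 0 members were lower with 15 µM ketoconazole or in its concentration step, 1 was higher between the higher concentrations, 0 lower between the lower ones and 4 higher in the simvastatin step, and Lbr between the higher concentrations turned to -0.25. Without a filter, and with total counts only (added after seeing the data), 2 members were higher between the higher concentrations. With only the treatment and vehicle wells, 12 were higher in medium. Total-count scaling moved the median of all genes by up to -0.41 (10000 µM acetaminophen) and RLE by at most 0.02. Among 216 values of single members, DESeq2 kept the call of 214, RLE of 213, and wells added per batch lost 47.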
